A study of Bos taurus with 16 samples.

Results

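Osteoprotegerin (TNFRSF11B) and 9 other ligands and receptors of the tumour necrosis factor (TNF) family were followed in the blood leukocytes (WBC) and the uterine lining (endometrium) of dairy cows, healthy or with subclinical endometritis (SCE). The members were taken by gene name: every probe of the bovine array that is not a control spot and carries the name TNFRSF11B, TNFSF11, TNFRSF11A, TNF, TNFRSF1A, TNFRSF1B, FAS, FASLG, TNFSF10 or TNFSF13B. This gave 18 probes of 46615, for 10 genes of 26554 gene names. TNFRSF11B was chosen by its endometrial signal in SCE cows against that in healthy ones, so that contrast is described here without a test for every member, and nothing is supported with it.

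The samples came from 8 multiparous Holstein cows at 45 to 55 days postpartum, 4 healthy and 4 with SCE, and each cow gave 1 WBC sample and 1 endometrial biopsy, which makes 16 one-colour arrays in 4 groups. SCE was a histological diagnosis of non-purulent inflammation of the uterine lining in the absence of clinical signs. The WBC RNA came from whole blood stabilised in PAXgene tubes, and the endometrial RNA from transcervical biopsies, so both are mixtures of cell types. In such bulk samples fewer cells of a type and less RNA per cell cannot be told apart. Cows of both groups were in the luteal or the follicular phase of the estrous cycle, with more luteal cows in the SCE group, and the labels do not give the phase of a cow. Values are log2 of the quantile-normalized median spot signal, and "well above background" is the call of the scanner software for a spot.

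TNF family ligands are trimeric proteins, on the cell surface or shed from it, that bind receptors with cysteine-rich repeats. Receptors with a death domain (TNFRSF1A, FAS) can lead to caspase activation, whereas receptors without one (TNFRSF1B, TNFRSF11A) recruit TRAF adaptors and signal to NF-kappa-B. Osteoprotegerin is a secreted decoy receptor: it binds the ligands TNFSF11 (RANKL) and TNFSF10 (TRAIL) and keeps them from their signalling receptors. It is best known from bone, where it limits osteoclast formation, and it is also made by stromal and endothelial cells of other tissues.

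The probe sequences define what was measured, and those of the osteoprotegerin axis are shown first. Each probe is a 60-base oligonucleotide of the sense strand of a transcript, placed by the scanner files on the build HGSC Btau_3.1 and numbered here from the brightest over the 16 arrays. Both TNFRSF11B probes lie on chromosome 14, plus strand, in the transcript of the gene, at chr14:42583822-42583881 (probe 1) and chr14:42583671-42583730 (probe 2), with starts 151 bases apart; the first 30 bases of each are given. The TNFSF11 probe (chr12:11488392-11488451, plus strand) ends in a stop codon of its open reading frame, in capitals. TNFRSF11A probe 1 covers 2730 bases of the genome (chr24:63423166-63425895, plus strand), so its 60 bases join sequence on both sides of an intron, and probe 2 lies at chr24:63442532-63442591.
TNFRSF11B probe 1: atctggtccagtatctactgcctctatttt
TNFRSF11B probe 2: ttctcaggcgcttgaggagggaacaatgat
TNFSF11 probe 1: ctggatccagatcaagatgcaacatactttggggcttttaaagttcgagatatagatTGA
TNFRSF11A probe 1: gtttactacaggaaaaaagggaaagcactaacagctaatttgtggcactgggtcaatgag
TNFRSF11A probe 2: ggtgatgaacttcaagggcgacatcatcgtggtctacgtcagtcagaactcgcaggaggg

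Of the genes described for their tissue difference, 3 probes are shown whole, each with an open reading frame over its length: TNF probe 2 (chr23:27532093-27532152, minus strand), TNFRSF1B probe 2 (chr16:38243150-38243209, minus strand) and FASLG probe 3 (chr16:36827172-36827231, plus strand). TNFRSF1B probe 1 (chr16:38242254-38242313, minus strand) has a near copy on the array, a custom probe listed only under an Ensembl gene identifier, which shares 59 of its 60 bases and is shifted by 1 base. The first 30 bases of that pair are given, with the shared 29 in capitals. The custom probe does not carry the gene name and is no member, so its values serve only as a second measurement of the same stretch.
TNF probe 2: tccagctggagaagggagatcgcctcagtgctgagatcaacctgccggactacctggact
TNFRSF1B probe 2: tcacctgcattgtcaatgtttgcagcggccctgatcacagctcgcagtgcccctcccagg
FASLG probe 3: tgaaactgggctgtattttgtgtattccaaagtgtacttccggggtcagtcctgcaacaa
TNFRSF1B probe 1: CTGTGACCTGGTTAAGATGCCAAACCTCTa
Custom probe: gCTGTGACCTGGTTAAGATGCCAAACCTCT

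The arrays had 64.7% to 79.8% of their spots well above background. The endometrium array of SCE cow 833 stood apart: its median signal was 115.5 against 304 to 374 for the other 7 endometrium arrays, and its median correlation with them was 0.940 against at least 0.973. In that biopsy the mean level of 6 endothelium markers was 13.58 (10.67 to 11.73 in the other 7) and that of 9 endometrial stroma markers 12.62 (13.14 to 14.38). The neutrophil and stroma lists stood on the side of the labelled tissue: the neutrophil list averaged 11.36 to 12.01 in WBC and 7.53 to 8.19 in endometrium, and the stroma list 9.35 to 9.57 in WBC. The epithelium list averaged 10.12 to 11.72 in endometrium and 9.06 to 9.57 in WBC, but its genes were mixed. In healthy cows 3 of its 7 genes were higher in endometrium and 3 in WBC, past the adjusted test described below (median difference -0.25). The WBC array of cow 833 also stood apart from the other WBC arrays. Its median signal was 258.5 against 133 to 180.5, and its median correlation 0.972 against 0.984 to 0.989. The SCE minus healthy differences of TNFRSF11B, FAS and TNFSF10 in the endometrium are given with and without cow 833. Those of single probes in WBC are given with it. The 8 arrays of a tissue share 1 slide and 1 scan, so tissue, slide and scan cannot be told apart. Each row of a slide held 2 healthy and 2 SCE cows.

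Of the 18 probes, 6 were well above background on all 16 arrays (TNFRSF1A, both of TNFRSF1B, FAS and both of TNFSF10), and 3 on none: the TNFSF11 probe and both TNFRSF11A probes. In the plot of member levels these last probes form flat panels of open circles. By their brightest probes FASLG and TNFSF13B were well above background in all 8 WBC arrays and in 1 endometrium array, and TNFRSF11B showed the opposite arrangement, with 7 endometrium arrays and no WBC array.

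**Figure D1:**
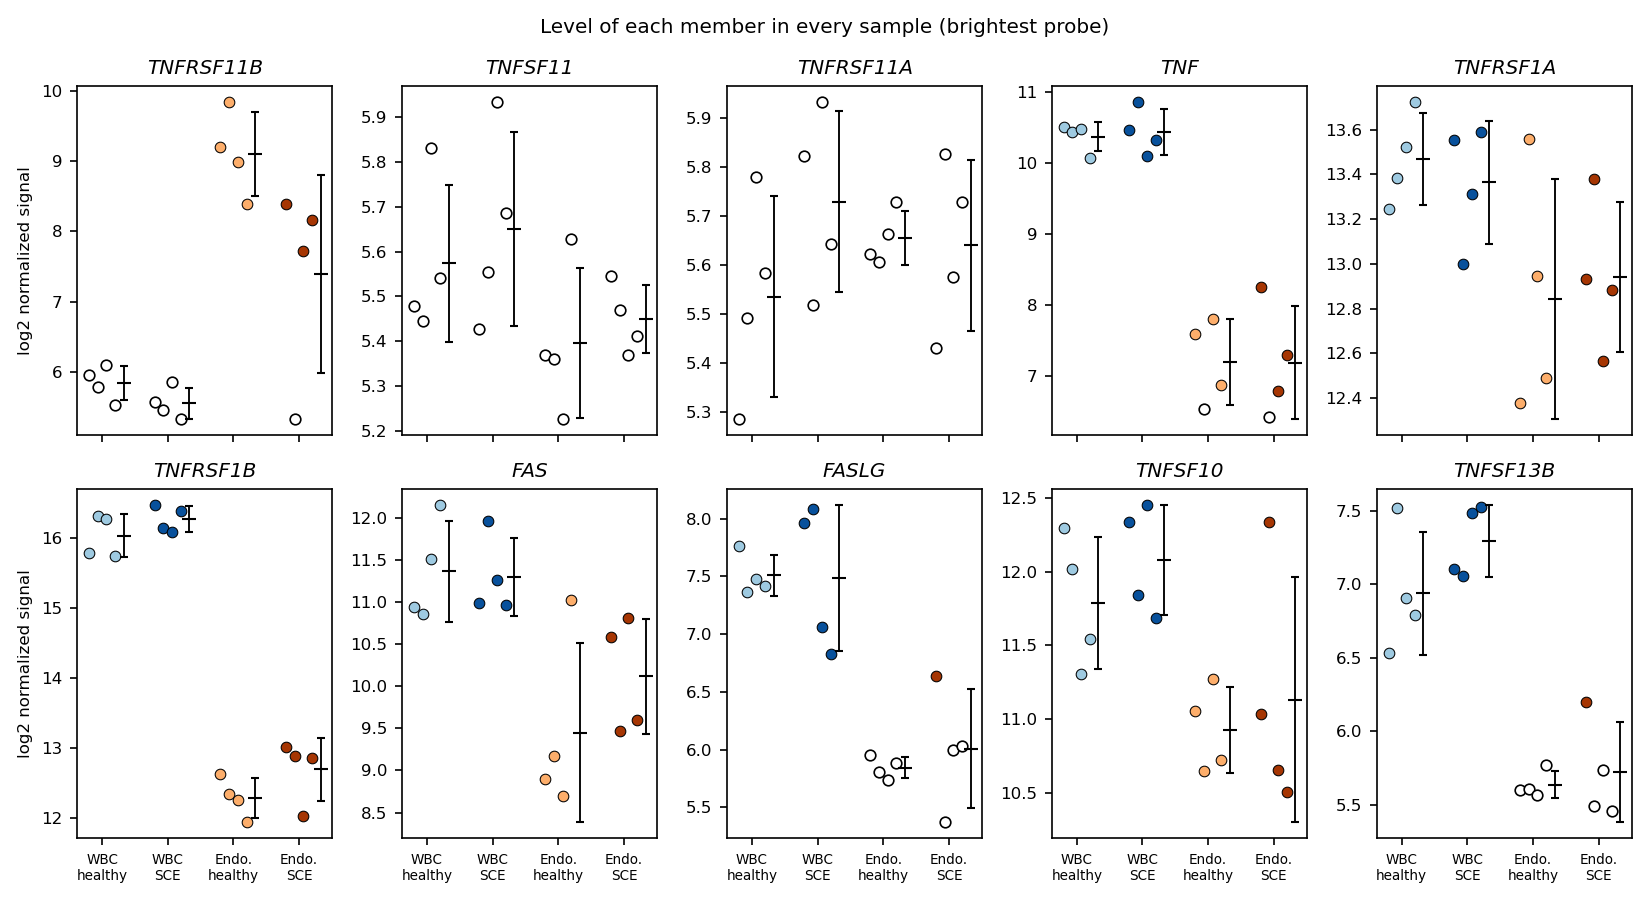
Level of each member (brightest probe, log2 normalized signal) in the 4 groups, 1 point a cow; filled points were well above background, open points were not, and the bar gives the mean and SD (n = 4). TNFRSF11B is above background in 7 of 8 endometrium arrays and in none of the WBC arrays, while TNF, TNFRSF1B, FASLG and TNFSF13B lie higher in WBC.

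TNFRSF11B transcripts were detected in the endometrium and not, or barely, in WBC. In the endometrium of healthy cows probe 1 read 9.19, 9.84, 8.99 and 8.39 (cows 841, 850, 877 and 883; mean 9.10 ± 0.60, SD, n = 4). The SCE biopsies read 8.38, 5.34, 7.72 and 8.16 (cows 718, 833, 836 and 846; mean 7.40 ± 1.40, SD, n = 4). In WBC it lay between 5.34 and 6.10 and was not well above background on any of the 8 arrays. The 2 endometrial groups did not overlap, but the lowest healthy cow (8.39) and the highest SCE cow (8.38) all but touched, and the endometrium of cow 833 was at the level of the blood samples.

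Probe 2 gave the same order of groups. The endometrium read 8.76, 9.25, 8.39 and 7.86 (healthy cows, same order) and 7.76, 5.57, 7.80 and 7.84 (SCE cows, same order). Here too the groups were separated by a narrow gap (7.86 against 7.84), and cow 833 was the only endometrium below the background call. The 2 probes followed each other over the 8 endometrium arrays (Pearson's r = 0.987, Spearman's rho = 0.93), which describes 2 parts of 1 transcript in the same samples; without cow 833 the r was 0.946. In WBC, 1 array stood out with probe 2: SCE cow 836 read 7.26, well above background, where the other 7 lay between 5.40 and 5.92. Probe 1 read 5.86 in that same sample, not well above background, so the 2 probes disagreed there.

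The SCE minus healthy difference of TNFRSF11B in the endometrium, the contrast that chose the gene, was -1.70 (SE 0.65) on the log2 scale with probe 1 and -1.32 (SE 0.54) with probe 2. Without cow 833 the difference was -1.01 with probe 1, where the 3 remaining SCE cows averaged 8.09 ± 0.34 (SD), and to -0.77 with probe 2. By row of the slide, probe 1 differed by -2.66 in row 1, which holds cow 833, and by -0.75 in row 2 (2 cows against 2 in each). The part of the stroma and endothelium levels of cow 833 in these values was not tested. Among the healthy cows the level also varied by more than 1 log2 unit, with cow 850 highest and cow 883 lowest. The mean of 3 hormone receptor genes was 10.24, 10.07, 8.46 and 7.77 in the endometrium of healthy cows 841, 850, 877 and 883. In SCE cows 718, 833, 836 and 846 it was 9.45, 8.69, 7.91 and 8.77. In healthy cows, 841 and 850 were highest and 883 lowest, both for this mean and for TNFRSF11B probe 1. In SCE cows both were highest in cow 718, and this mean was lowest in cow 836 and TNFRSF11B in cow 833. The part of the hormone receptor genes was not tested.

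**Figure D2:**
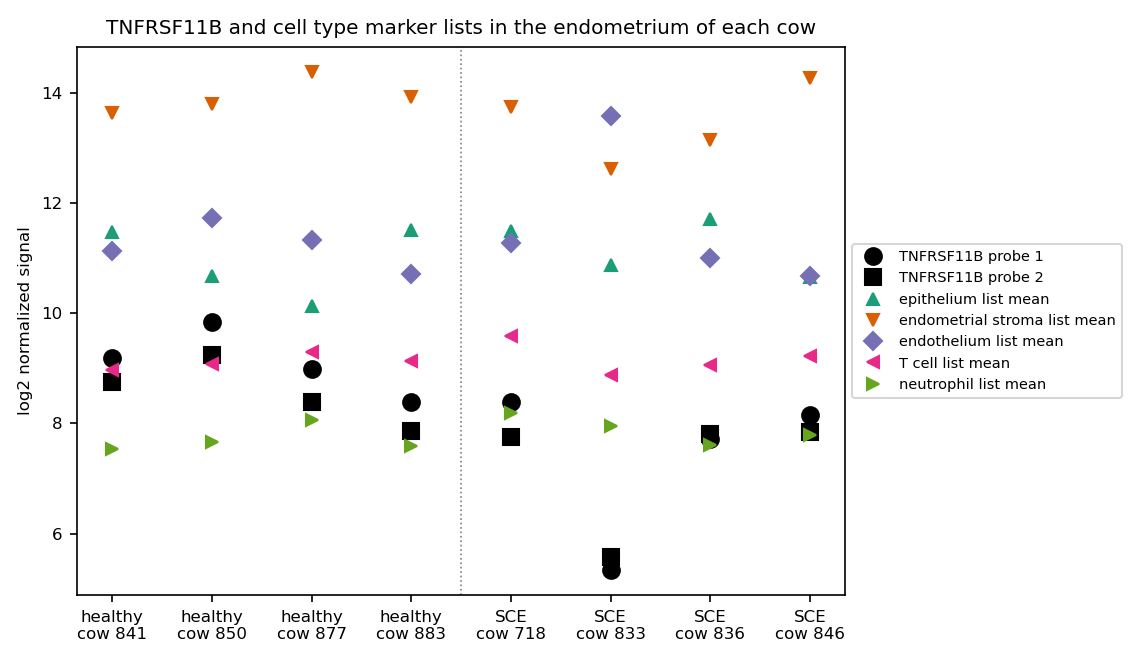
Log2 normalized signal of both TNFRSF11B probes and the mean level of 5 cell type marker lists in the endometrium of each cow, healthy cows left of the dotted line and SCE cows right of it. Both TNFRSF11B probes are lowest in SCE cow 833 (5.34 and 5.57), where the endothelium list is highest (13.58) and the stroma list lowest (12.62); levels of different genes are not comparable with each other, only across cows.

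The other members gave no such separation in the endometrium. Apart from TNFRSF11B, the SCE minus healthy differences of 16 probes ran from -0.18 to 0.67, with 4 of the 16 below 0, where 50.9% of all probes were below 0. Healthy and SCE cows did not overlap only for the 2 TNFRSF11B probes (2 of 18; 1.63% of all probes), and nothing is read from that count since the contrast was used to choose the gene. A difference of at least 1.5-fold was met by 3 of the 18 probes (5.02% of all probes), the 2 of TNFRSF11B and the 1 of FAS; in WBC none of the 18 met it (0.961% of all probes).

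FAS, the death receptor of the pathway that cytotoxic lymphocytes use, had the largest difference after TNFRSF11B. Healthy cows 841, 850, 877 and 883 read 8.90, 9.17, 8.70 and 11.02 in the endometrium, and SCE cows 718, 833, 836 and 846 read 10.59, 9.47, 10.81 and 9.60. The difference was 0.67 (SE 0.55), and the groups overlapped because healthy cow 883 lay above all 4 SCE cows. Leaving out single cows moved it from 0.42 (without healthy cow 877) to 1.19 (without healthy cow 883), and it was 0.44 without SCE cow 836 and 0.88 without cow 833. TNFRSF1B probe 1 was at 12.63, 12.35, 12.26 and 11.94 in healthy endometrium and at 13.01, 12.89, 12.03 and 12.85 in SCE endometrium, a difference of 0.40 (SE 0.25), again with overlap through SCE cow 836, without which it was 0.62. The custom probe that shares 59 of its bases differed by 0.51 (SE 0.24).

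The ligands that osteoprotegerin binds were read in the same biopsies. The TNFSF11 probe lay between 5.23 and 5.63 in the 8 endometrium arrays, with no array well above background, so only an upper bound of its level is measured. TNFSF10 probe 1 read 11.06, 10.65, 11.27 and 10.72 in healthy endometrium and 11.04, 12.34, 10.65 and 10.50 in SCE endometrium, so the 2 groups overlapped (difference 0.21, SE 0.39), and without cow 833 the difference turned to -0.20. Its highest endometrial value after normalization was that of cow 833, the cow with the lowest TNFRSF11B. Before normalization TNFSF10 probe 1 read 2079 on that dim array, below the 2454 to 3958 of the other endometrium arrays.

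**Figure D3:**
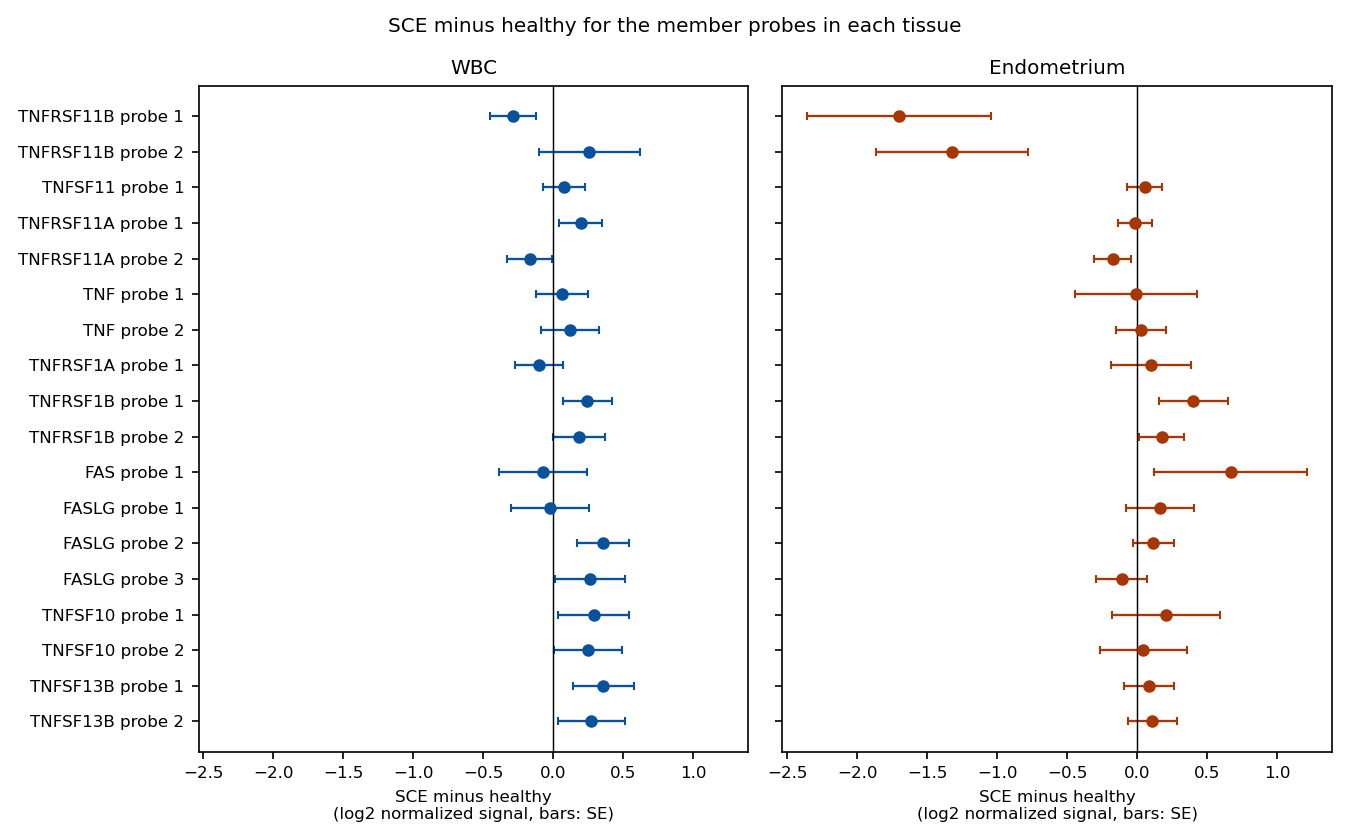
SCE minus healthy difference (log2 normalized signal, points) with its standard error (bars) for the 18 member probes in WBC (left) and endometrium (right), 4 cows against 4. In WBC all differences lie between -0.29 and 0.36; in the endometrium the 2 TNFRSF11B probes lie at -1.70 and -1.32 and no other probe is below -0.18.

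In WBC, a contrast that was not used to choose the genes, none of the 18 member probes differed between SCE and healthy cows by limma's TREAT test (a test against a change of 1.2-fold), with or without Benjamini-Hochberg adjustment over all probes. Over all probes the adjusted test called 0% and the unadjusted one 0.122% (57 probes). Without SCE cow 833, whose WBC array stood apart, the unadjusted test called 675 of all probes and 0 of the 18 member probes. Healthy and SCE cows overlapped for all 18 probes (1.3% of all probes had no overlap). The differences ran from -0.29 to 0.36 with a median of 0.19, against a median of -0.01 over all probes, and 5 of the 18 were below 0, against 51.9% of all probes.

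TNFRSF11B probe 1 differed by -0.29 in WBC (95% interval -0.66 to 0.09; exact permutation p = 0.14), with both groups below background. Among the members detected in WBC, the ligands FASLG, TNFSF13B and TNFSF10 had the smallest TREAT p-values, and the cows of the 2 groups overlapped for each of them. FASLG probe 2 read 7.19, 6.83, 6.97 and 7.13 in healthy blood and 7.90, 7.29, 7.21 and 7.14 in SCE blood, a difference of 0.35 (95% interval -0.06 to 0.77). The two-sided exact permutation test over the 35 splits of the cows gave p = 0.057, where 0.029 is the smallest p that 4 cows against 4 allow. FASLG probe 1, on the same transcript, differed by -0.02 (95% interval -0.64 to 0.60), and probe 3 by 0.26 (95% interval -0.30 to 0.82; exact permutation p = 0.51), so the probes did not give 1 answer. TNFSF13B (BAFF), a survival factor of B cells, read, with probe 1, 6.53, 7.52, 6.91 and 6.79 (healthy) against 7.11, 7.06, 7.48 and 7.52 (SCE), a difference of 0.36 (95% interval -0.13 to 0.84; exact permutation p = 0.17).

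TNF and its receptors did not pass in WBC either. TNF, the founding cytokine of the family, averaged 10.37 ± 0.20 in healthy and 10.43 ± 0.32 in SCE cows with probe 1 (SD, n = 4 each), and its difference of 0.06 had a 95% interval of -0.35 to 0.47. TNFRSF1A differed by -0.10 (95% interval -0.49 to 0.28), TNFRSF1B probe 1 by 0.24 (95% interval -0.15 to 0.64) and FAS by -0.07 (95% interval -0.77 to 0.63). The mean of the 7 measured monocyte and macrophage markers did not overlap between the groups in WBC, from 9.44 to 9.73 in healthy and from 9.73 to 9.92 in SCE cows, with all 4 SCE cows higher by a narrow gap. Of those 7 genes only CSF1R, the receptor of the monocyte growth factor CSF1, passed the unadjusted TREAT test (difference 0.64; limma's TREAT adjusted p = 1); the part of these cells in the values of the members was not tested. The other cell type lists overlapped in WBC: the neutrophil list ran from 11.36 to 12.01 in healthy and from 11.56 to 11.90 in SCE cows, the T cell list from 11.88 to 12.24 and from 11.73 to 12.20.

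Between the tissues, more member probes passed as higher in WBC than as higher in the endometrium. In healthy cows 9 of the 18 probes were higher in WBC past the adjusted TREAT test (26.8% of all probes) and 2 were higher in the endometrium (19.7% of all probes), both of TNFRSF11B. In SCE cows 9 were higher in WBC (26% of all probes) and 1 in the endometrium (19.3% of all probes). Counted in either direction, the 11 probes called in healthy cows stand against 46.5% of all probes, and the 10 in SCE cows against 45.3%. In both groups of cows, 9 probes passed, 8 of them higher in WBC: those of TNF, TNFRSF1B and TNFSF13B and 2 of the 3 of FASLG. Probes of 1 gene share a target, so by the brightest probe the counts are 5 of 10 genes higher in WBC in healthy cows and 4 of 10 in SCE cows. The median difference of all probes was -0.15 in healthy and -0.16 in SCE cows, and normalizing each tissue on its own moved it to 0.36 in both, so differences of the order of 0.5 depend on that choice. With that normalization 7 of the 18 probes passed in each group of cows, 2 of the 7 higher in the endometrium. Of all 46615 probes, 21435 passed with it in healthy and 20780 in SCE cows, beside 21660 and 21120 without it.

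TNFRSF11B was the only member that passed the test with more signal in the endometrium. In healthy cows the difference was 3.25 (SE 0.50; limma's TREAT adjusted p = 8.0e-05) with probe 1 and 2.83 (SE 0.49; adjusted p = 0.00026) with probe 2. Since no WBC array of the healthy cows was well above background, these are bounds: the endometrium was at least 9.17-fold higher with probe 1 and at least 6.87-fold higher with probe 2, taking for WBC the higher of the probe's own signal and the lowest signal among spots well above background on each array. In SCE cows the difference was 1.84 (SE 0.50; adjusted p = 0.010), at least 3.06-fold, with probe 1, and 1.25 (SE 0.49; adjusted p = 0.071) with probe 2, where SCE cow 836 was above background in WBC. The endometrial values of the healthy and the SCE cows enter the contrast that chose the gene. That choice favours a high signal in healthy and a low one in SCE endometrium. The p-values in both groups of cows, also with a cow left out, are therefore not those of a gene chosen without these values. The larger step in healthy cows is not a separate result either.

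Cow by cow, the endometrium exceeded WBC by 2.84 to 4.04 in the healthy cows with probe 1, by 2.80 in SCE cow 718, 1.86 in cow 836 and 2.83 in cow 846, and by -0.12 in cow 833. Thus 7 of 8 cows had more TNFRSF11B signal in the endometrium, and cow 833 did not. Without cow 833 the difference in SCE cows was 2.50 (adjusted p = 1.2e-05); without cow 718 or cow 846 it was 1.52 or 1.51 and lost the call (adjusted p = 0.064 and 0.075).

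**Figure D4:**
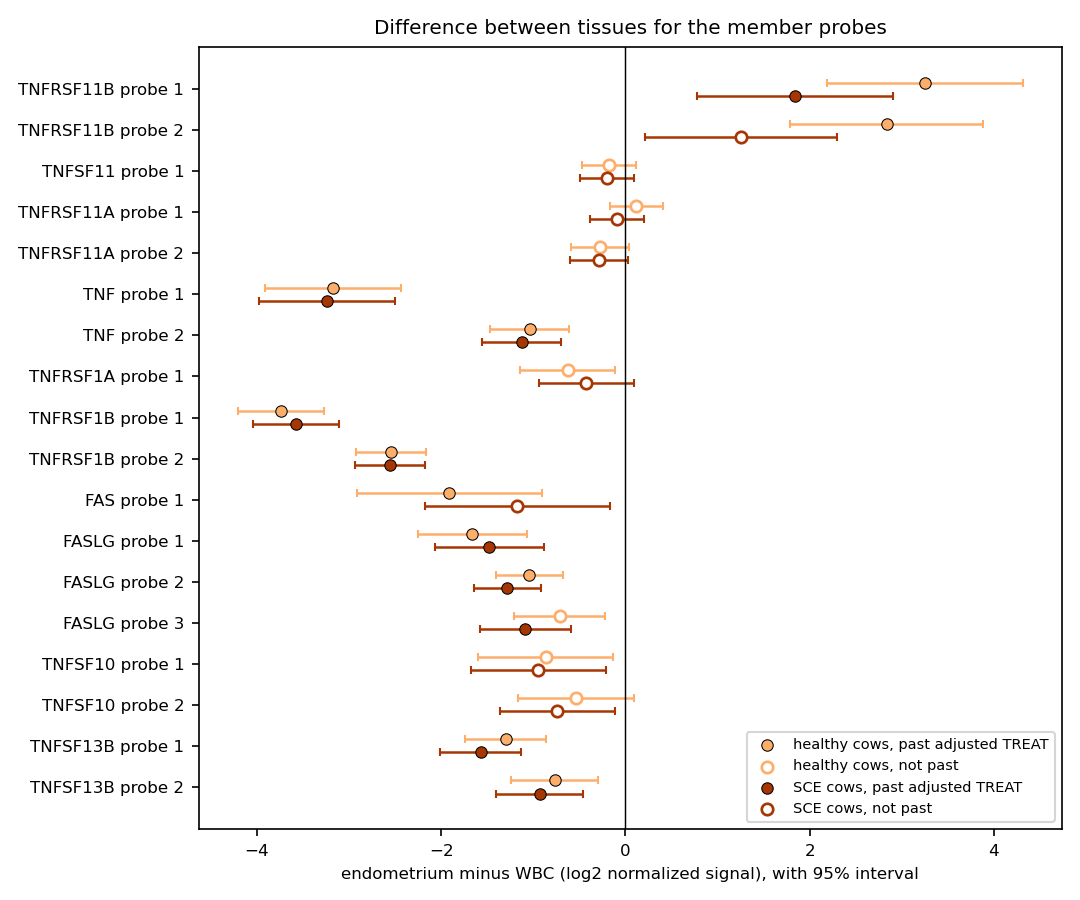
Endometrium minus WBC (log2 normalized signal) for the 18 member probes in healthy and in SCE cows, with 95% intervals; filled points passed limma's TREAT test after adjustment over all probes. Both TNFRSF11B probes lie right of 0 (3.25 and 2.83 in healthy cows), those of TNF, TNFRSF1B, FAS, FASLG, TNFRSF1A, TNFSF10 and TNFSF13B left of it, and those of TNFSF11 and TNFRSF11A around it.

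The receptors that TNF binds differed strongly in how far the tissues were apart. TNFRSF1B, the TNF receptor of leukocytes and endothelium, read 15.79, 16.32, 16.28 and 15.74 in WBC of healthy cows with probe 1 and 12.63, 12.35, 12.26 and 11.94 in their endometrium. The difference was -3.74 (SE 0.22; adjusted p = 2.3e-09) in healthy and -3.58 (SE 0.22; adjusted p = 4.2e-09) in SCE cows, a 13.3-fold and an 11.9-fold higher signal in WBC. Probe 2 gave a smaller step of -2.55 and -2.56, and the custom probe -3.73 and -3.43, so the size depends on the stretch of the transcript and the direction does not.

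TNFRSF1A, the TNF receptor with a death domain that most cell types carry, was bright in both tissues. It averaged 13.47 ± 0.20 in WBC and 12.84 ± 0.54 in endometrium of healthy cows, and 13.36 ± 0.27 and 12.94 ± 0.34 in SCE cows (SD, n = 4 each). The difference of -0.63 (SE 0.24; adjusted p = 0.14) in healthy and of -0.42 (SE 0.24; adjusted p = 0.41) in SCE cows did not pass, and with each tissue normalized on its own the second value turned to 0.12. Without healthy cow 850, whose endometrium was the highest at 13.56, the difference in healthy cows was -0.89 and passed (adjusted p = 0.028).

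TNF and FASLG were higher in WBC. TNF probe 1 read 10.50, 10.43, 10.48 and 10.07 in WBC of healthy cows and 7.59, 6.53, 7.81 and 6.87 in their endometrium, a difference of -3.17 (SE 0.35; adjusted p = 2.8e-06). In SCE cows it was -3.24 (SE 0.35; adjusted p = 2.3e-06), and probe 2, dimmer, gave -1.04 and -1.13. FASLG, the ligand of FAS made by activated T and NK cells, was not well above background with probe 1 in the endometrium of any healthy cow. This probe averaged 7.51 ± 0.18 in their WBC (SD, n = 4), at least 3.17-fold higher. Its difference was -1.66, and -1.09 with each tissue normalized on its own. Probes 2 and 3 gave smaller steps in healthy cows, -1.04 (adjusted p = 0.00077) and -0.71 (adjusted p = 0.073), and probe 3 did not pass. They were well above background in 1 and 2 endometrium arrays of healthy cows. In SCE cows both passed, with -1.28 and -1.09. The T cell marker list averaged 11.73 to 12.24 in WBC and 8.88 to 9.59 in endometrium, the NK and cytotoxic list 10.21 to 11.25 and 7.52 to 8.11; their part in these differences was not tested.

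Of the other ligands, TNFSF13B was near background in the endometrium: no healthy cow was well above background there, and WBC was at least 2.40-fold higher with probe 1 (difference -1.30, SE 0.21; adjusted p = 0.00036). In SCE cows the difference was -1.57 (SE 0.21, adjusted p = 4.8e-05). With each tissue normalized on its own the differences of probe 1 were -0.84 in healthy and -1.05 in SCE cows. Probe 2 gave a smaller step in healthy cows, -0.77 (adjusted p = 0.042), with WBC at least 1.70-fold higher. Its difference in SCE cows was -0.93 (adjusted p = 0.012). In WBC probe 2 was well above background on only 2 arrays of each group. TNFSF10, which binds death receptors and osteoprotegerin, was bright in both tissues, and its differences of -0.87 (adjusted p = 0.10) and -0.95 (adjusted p = 0.071) with probe 1 did not pass. With each tissue normalized on its own the first of them was 0.01. Without cow 833, whose normalized TNFSF10 signal was higher in endometrium than in WBC, they passed (-0.87, TREAT adjusted p = 0.027, and -1.43, TREAT adjusted p = 0.0014).

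FAS was 3.77-fold higher in WBC than in endometrium of healthy cows (-1.91, SE 0.47; adjusted p = 0.0052). In SCE cows the difference was -1.17 (SE 0.47; adjusted p = 0.082), and with the cow as a block in the fit it passed (adjusted p = 0.045), as it did with the same value when healthy cow 883 was left out of the fit, which lowers the pooled spread (adjusted p = 0.018). With each tissue normalized on its own, the difference in healthy cows was -0.99 and did not pass (adjusted p = 0.15). All 8 cows had more FAS signal in WBC, with differences from -2.81 to -0.41. Whether the difference between tissues was smaller in SCE cows was not tested.

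The other genes of the family and its signalling route were taken from 3 lists. Of 17 measured receptors among 23 listed, 12 were higher in WBC and 4 in the endometrium in healthy cows, with a median difference of -1.34, and 9 and 3 in SCE cows. For these and the following lists, the shares over all probes were 26.8% and 19.7% in healthy cows and 26% and 19.3% in SCE cows. TNFRSF13C, the BAFF receptor of B cells, fell furthest from WBC (14.39 ± 0.45) to endometrium (6.98 ± 0.52), by 7.41, and CD40, a receptor of B cells and other antigen-presenting cells, fell by 4.04. The B cell marker list averaged 12.14 to 13.10 in WBC and 8.49 to 9.48 in endometrium, and its part was not tested. TNFRSF12A, the receptor of TNFSF12 (TWEAK), and TNFRSF19 were higher in endometrium, by 2.24 (SE 0.71; adjusted p = 0.022) and 1.19 (SE 0.27; adjusted p = 0.0061) in SCE cows, and past the test in healthy cows too; the fit for TNFRSF12A used 3 endometrium arrays of SCE cows because 1 spot was flagged.

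Of 11 measured ligands among 13 listed, 7 were higher in WBC and 1 in endometrium in healthy cows, and 6 and 1 in SCE cows. The exception was TNFSF12, past the test in healthy cows (adjusted p = 0.0031) and 0.81 higher in endometrium in SCE cows (adjusted p = 0.018), so the ligand and its receptor TNFRSF12A stood on the same side. TNFSF8 (CD30 ligand) fell by 5.01 from WBC to endometrium in healthy cows, and TNFSF14 (LIGHT), not well above background in their endometrium, was at least 8.99-fold higher in WBC. Of 22 measured adaptors and death signalling genes among 24 listed, 15 were higher in WBC and 2 in endometrium in healthy cows, and 15 and 1 in SCE cows: CASP8, the initiator caspase below FAS, fell by 3.27 and TRAF5 by 2.84, while FAIM, an inhibitor of FAS signalling, was higher in endometrium by 2.02. None of the genes measured in the 3 lists passed the unadjusted TREAT test between SCE and healthy cows in WBC.

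Genes whose level followed TNFRSF11B most closely over the 8 endometrium arrays, out of 12331 genes compared, were TUBGCP3 (r = 0.989), LEPR (0.985), URB1 (0.982) and TLK1 (0.974). These are descriptions over 8 biopsies that share a slide, 1 of them from cow 833, and the genes were picked as the highest of many. Without cow 833, a choice made after seeing the data, the r of these 4 lay between 0.910 and 0.962. LEPR, the leptin receptor, read 7.27, 7.54, 7.17 and 7.01 (healthy, cows 841, 850, 877 and 883) and 6.89, 5.47, 6.31 and 6.74 (SCE, cows 718, 833, 836 and 846). Like TNFRSF11B it was lowest in cow 833 and highest in cow 850, which follows largely from its choice by correlation over these arrays. LEPR was not well above background in any WBC array.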

How the data were processed

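RNA of circulating WBC and endometrium of 8 cows (4 healthy, 4 SCE) was hybridized by the authors to a custom bovine Agilent array (1 colour, Cy3), and the deposited scanner files hold spot intensity from Agilent Feature Extraction 10.10.1.1. The deposited value table holds the authors' quantile-normalized intensity of the median signal, checked against the scanner values (median difference 0.0415%), and served as an alternative. The members and gene lists were chosen with earlier results of these data known.

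Control spots and spots flagged as outliers were left out, log2 of the median signal was quantile-normalized over 16 arrays without background subtraction, and spots of a probe were averaged. Tissues were compared with limma 3.58.1 (R 4.3.3) over all 4 groups, and SCE with healthy WBC over the 8 WBC arrays, by TREAT at 1.2-fold, with Benjamini-Hochberg adjustment over all probes at 0.05; single probes in WBC also by a two-sided exact permutation test. The fits were tested on simulated data. Quantile normalization over both tissues sets their distributions equal, and signals near background compress fold changes. The number of arrays limits the precision; cows are separate animals. The 2 samples of a cow come from the same animal, which is the basis of the replicate block; the correlation of their deviations from the group means was 0.066 to 0.108 in healthy and -0.24 to 0.058 in SCE cows. Named genes: all members, with the brightest probe in full; per list, the 2 largest rises and falls past the adjusted test in both groups of cows; the 5 genes most correlated with TNFRSF11B, of which 1 is not reported here.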

Additional observations from a re-analysis of the deposited data

Results flagged for a closer look

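Among 72 groups of 4 arrays (18 probes in 4 groups), 4 held a sample far from the other 3 by Dixon's gap test at the 95% level; chance flags about 1 in 20 groups. TNFRSF11B probe 2 in the endometrium of SCE cow 833 read 5.57 against 7.76 to 7.84 in the other SCE cows. TNF probe 1 in WBC of healthy cow 883 read 10.07 against 10.43 to 10.50. TNFRSF1B probe 1 in the endometrium of SCE cow 836 read 12.03 against 12.85 to 13.01. FASLG probe 3 in the endometrium of SCE cow 718 read 6.44 against 5.91 to 5.92, and only 2 of those 4 spots were well above background.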

How the results depend on the processing

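With each tissue normalized on its own, 7 of the 18 probes passed between tissues in healthy cows (11 before), a move of over 1.5 times. Of all 46615 probes, 21435 passed with that setting and 21660 before. In the fits on the mean of all probes of a gene name 6 of 10 genes passed in healthy and 5 of 10 in SCE cows, beside 11 and 10 of 18 probes. Of all 26554 gene names, 12083 and 11608 passed. Leaving out each cow in turn gave 10 to 12 probes in healthy and 9 to 12 in SCE cows, and 0 in WBC under every setting. Between the tissues these fits called 18754 to 23765 of all probes in healthy and 17273 to 24329 in SCE cows. With the cow as a replicate block, 11 and 12 probes passed (20388 and 19763 of all probes), and among the brightest probes only the call of FAS in SCE cows changed. The endometrial TNFRSF11B difference ran from -2.21 (processed signal) to -1.41 (normexp background correction) over the scalings, and from -2.03 to -1.01 when a cow was left out, the last without SCE cow 833. Of 36 differences of the other members, 31 to 36 kept their sign under the alternatives that change the scaling or leave out a cow. Of 533 single-gene values, 7 gained the call, 4 lost it and 11 moved by at least the spread of the cows, in tested contrasts with a change of sign. The other 511 counted as unchanged, which includes values that changed sign by less than that spread. FASLG probe 1 in WBC, for example, went from -0.02 to 0.18 with the processed signal. With the processed signal, TNFRSF1A in healthy cows (-1.19, adjusted p = 0.0076) and TNFSF10 in SCE cows (-1.18, adjusted p = 0.029) gained the call; with each tissue normalized on its own, FASLG in SCE cows lost it (-0.89, adjusted p = 0.054). Signals near background limit TNFSF11 and TNFRSF11A to an upper bound.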
